A study of Mus musculus with 34 samples.

Results

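The 34 cell cycle and mitosis genes examined here were picked by symbol from a table of gene levels in 34 mouse livers, which lists 35976 symbols. All 34 were found, and all 34 passed the filter on low values that 19295 genes of the table passed (1 FPKM or more in at least 5 livers). FPKM count sequenced fragments relative to transcript length and to the size of the library. By role, 7 of the genes act in S phase and DNA synthesis, 8 are cyclins or Cdk1, and 19 act in mitosis. The livers came from C57BL/6 mice homozygous for TetO-Cas9, a Cas9 nuclease under a tetracycline-responsive promoter, and for Rosa-rtTA, the transactivator that turns that promoter on, placed at the Rosa locus. Every mouse, controls included, had received an adeno-associated virus (AAV) carrying guide RNA and had been kept on a Western diet for 3 months. The groups labelled knockout (KO) are Bcl6 with 5 livers, Irs1 with 5, Smyd2 with 6, Srebf1 with 5 and Tbx3 with 7, each named for the gene its guide targets. The 6 control livers received a guide for a sequence that mice lack, GFP in 4 (sgGFP) and LacZ in 2 (sgLacZ). The labels name no age or sex, and the share of liver cells that was edited is not given in the sources used here. The Rosa locus is active in most cell types, so editing need not have been limited to hepatocytes.

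A dividing cell passes through G1, S phase, G2 and mitosis. D-type cyclins act in G1 and E-type cyclins at the entry to S phase, and E2F transcription factors switch on the genes of DNA synthesis. The MCM proteins form the helicase that opens DNA, Pcna is the clamp that holds DNA polymerase, and Rrm2 and Tyms make the building blocks of DNA. Cyclin A2, the B-type cyclins and Cdk1 drive the later phases, and the mitotic genes encode the spindle, the kinetochore, the spindle checkpoint and the machinery of cytokinesis. Many mitotic genes are held off in resting cells by the DREAM complex and switched on later by MYBL2 and FOXM1, through a promoter element known as the cell cycle genes homology region (CHR), often near CCAAT boxes bound by NF-Y. Adult hepatocytes divide rarely but return to the cycle after injury, and resident and recruited macrophages and other nonparenchymal cells of a liver under metabolic stress also divide. RNA from a whole liver sums all of these cells, so fewer dividing cells and less RNA in each of them cannot be told apart.

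The promoters of these genes were searched for elements of the kinds described above, none of which was found in every gene. RefSeq windows of 300 bases (250 before the annotated start and 50 from it on, build GRCm38.p6) were matched for 26 of the 34 genes. Ccnd1, Ccnd2, Ccne2, Ccna2, Aurkb, Kif20a, Tpx2 and Foxm1 had no matched window. Windows were searched on both strands for the CHR, spelled TTTGAA or, in a variant form, TTCGAA, for the CCAAT box, and for E2F motifs (TTTGGCGC, TTTCGCGC, TTTCCCGC or TTTGCCGC). A CHR match was found for 12 of 15 mitosis genes, 1 of 7 S phase genes and 2 of 4 cyclin or Cdk1 genes, against 19.2% of all 32851 promoter windows. CCAAT was found for 22 of the 26 genes, against 37.4% of all windows. An E2F match was found for 3 of 7 S phase genes, 1 of 4 cyclin or Cdk1 genes and 0 of 15 mitosis genes, against 2.26% of all windows. These matches describe letters in a window and were not measured as binding sites. Stretches of 6 promoters are printed for genes whose levels are described below, 4 of the mitosis group with CHR matches and 2 of the S phase group with E2F matches. Each runs 5′ to 3′ along the gene's own strand, from 20 bases before the first match to at most 29 bases past the annotated start. Matches are in capitals. A match on the opposite strand is printed as its reverse complement, so that a CCAAT box there appears as ATTGG. In Mcm5 a TTTCGCGC on the gene's strand overlaps a TTTGGCGC on the other. The stretches are chr11:40733408-40733629 on the minus strand for Hmmr, chr11:99024187-99024436 on the minus strand for Top2a, chr7:135716452-135716587 on the minus strand for Mki67, chr1:189688059-189688238 on the minus strand for Cenpf, chr1:20820283-20820449 on the minus strand for Mcm3 and chr8:75109336-75109538 on the plus strand for Mcm5.
Hmmr: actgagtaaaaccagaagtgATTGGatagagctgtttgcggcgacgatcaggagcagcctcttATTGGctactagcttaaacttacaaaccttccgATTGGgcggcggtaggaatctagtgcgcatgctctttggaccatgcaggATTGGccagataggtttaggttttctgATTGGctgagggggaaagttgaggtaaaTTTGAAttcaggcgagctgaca
Top2a: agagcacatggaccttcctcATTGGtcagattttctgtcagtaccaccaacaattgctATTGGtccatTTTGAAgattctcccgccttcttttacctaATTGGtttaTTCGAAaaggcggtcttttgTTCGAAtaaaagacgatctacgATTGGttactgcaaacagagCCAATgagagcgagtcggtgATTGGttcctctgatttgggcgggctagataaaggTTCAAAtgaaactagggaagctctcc
Mki67: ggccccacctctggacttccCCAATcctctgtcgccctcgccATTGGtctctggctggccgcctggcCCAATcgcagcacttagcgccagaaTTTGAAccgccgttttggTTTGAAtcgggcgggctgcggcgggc
Cenpf: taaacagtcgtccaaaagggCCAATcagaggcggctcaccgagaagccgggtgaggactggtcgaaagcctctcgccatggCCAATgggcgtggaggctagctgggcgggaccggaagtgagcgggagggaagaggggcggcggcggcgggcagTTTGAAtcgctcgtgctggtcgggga
Mcm3: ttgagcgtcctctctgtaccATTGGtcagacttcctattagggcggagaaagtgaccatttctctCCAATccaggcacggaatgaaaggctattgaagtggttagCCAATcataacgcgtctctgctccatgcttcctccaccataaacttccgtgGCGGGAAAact
Mcm5: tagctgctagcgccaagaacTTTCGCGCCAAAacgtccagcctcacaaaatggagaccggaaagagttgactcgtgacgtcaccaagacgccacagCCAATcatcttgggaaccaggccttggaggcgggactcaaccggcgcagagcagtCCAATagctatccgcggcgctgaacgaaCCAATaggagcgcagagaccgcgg

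Levels of many of these genes were low, and depth limited them. The FPKM imply 2110000 to 3130000 counted reads per library, so that 1 read in a transcript of 2 kb was worth 0.16 to 0.237 FPKM. The median over all livers was under 5 FPKM for 14 genes (Ccne1, Ccnb1, Ccnb2, Cdk1, Cdc20, Bub1, Bub1b, Aurkb, Plk1, Cenpe, Cenpf, Kif11, Ube2c and Foxm1), and 7 of them (Ccnb1, Ccnb2, Cdk1, Bub1, Aurkb, Plk1 and Ube2c) were listed at 0 in at least 1 liver. Ccnd1 had a median of 112.0 FPKM over all livers, and 23 of the 34 genes reached 1 FPKM in every liver. Hepatocyte markers were abundant in every liver, with 8 markers summing to 68770 to 194200 FPKM. The mRNA of the targeted gene does not check most labels, since an edited gene can still be transcribed. Irs1 mRNA, for example, stood at 25.4 to 35.8 FPKM in Irs1 KO livers and at 20.2 to 27.6 in controls. The library labelled Srebf1 KO replicate 1 had 1908 FPKM of Srebf1 mRNA, within the control range of 1095 to 2177, while the other 4 livers of that group had 498.8 to 631.7, so its level goes against its label. Counts, medians and the Ccnd1 values of Srebf1 KO are therefore given with and without it. The 5 comparisons below share the same 6 control livers, so their changes are not independent of one another. Changes are on the log2(FPKM + 1) scale, which understates those of low genes.

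Irs1 KO livers had lower levels of cell cycle genes than control livers. Irs1 is an adaptor that carries the insulin signal from its receptor. Of the 34 genes, 12 were lower and 0 higher in Irs1 KO by limma's moderated test (Benjamini-Hochberg adjusted p under 0.05 over all genes tested), where 7.61% of all genes were called lower and 3.24% higher. The 12 were 3 of 7 S phase genes, 1 of 8 cyclin or Cdk1 genes and 8 of 19 mitosis genes. All 34 changes were below 0, as were 12023 of the 19295 over all genes tested. The median of the 34 was -0.89, against -0.12 over all genes tested. Ccne1 moved above 0 under median scaling, under quantile normalization, against the sgGFP livers only, and without Irs1 KO replicate 1 or 2, sgGFP control replicate 2 or sgLacZ control replicate 2, and Pcna under quantile normalization. Quantile normalization moved the median of all genes to 0.02, and the members' median relative to it was -0.67, against -0.77 in the main analysis. It also moved the split of all calls to 884 higher and 908 lower from 625 and 1469, and median scaling moved it to 956 and 1027. In 11 genes every Irs1 KO liver lay below every control liver, as it did for 5.24% of all genes tested.

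Among the S phase genes, Mcm5, Mcm2 and Mcm3, subunits of the MCM helicase, fell in Irs1 KO. Mcm5 (chromosome 8, 75109569 to 75128439, plus strand, GRCm38 with the GENCODE M21 annotation, as for all gene positions here) stood at 15.2, 10.4, 2.43, 7.58 and 8.23 FPKM in the 5 Irs1 KO livers and at 20.7 to 44.2 with a median of 33.7 in the controls. The groups did not overlap, and the mean was 8.77 ± 4.64 (SD, n = 5) against 32.2 ± 9.67 (SD, n = 6), a log2 change of -1.87 (SE 0.54, limma adjusted p = 0.0219). Mcm2 (chromosome 6, 88883474 to 88898780, minus strand) stood at 5.88, 3.72, 4.77, 6.17 and 5.04 FPKM against 9.29 to 16.6 with a median of 12.3. Its Irs1 KO values spread little and all lay below the controls (log2 change -1.17, SE 0.36, limma adjusted p = 0.0317). Mcm3 (chromosome 1, 20802968 to 20820312, minus strand) stood at 10.95, 8.83, 7.73, 11.1 and 10.49 FPKM against 14.02 to 27.2 with a median of 19.5. This was the smallest of the 12 changes and the weakest call, again with no overlap between the groups (log2 change -0.91, SE 0.30, limma adjusted p = 0.0459). Mcm6, a further subunit of the helicase, had 6.59 to 15.2 FPKM against 20.4 to 32.2 and did not overlap either, but it did not pass the test (log2 change -0.90, SE 0.47, limma adjusted p = 0.228). Rrm2, the small subunit of ribonucleotide reductase, had a log2 change of -1.19 with an SE of 0.46 and did not pass (limma adjusted p = 0.0919). Tyms, which makes thymidylate, was at 78.8% and Pcna at 88.2% of the control mean, and neither passed.

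Of the cyclins, Ccnd1 alone passed the test in Irs1 KO. Ccnd1 encodes cyclin D1, which links growth signals to G1 progression and is the D-type cyclin best known from regenerating hepatocytes (chromosome 7, 144929931 to 144939925, minus strand). It stood at 77.3, 43.9, 48.4, 69.5 and 91.3 FPKM against 105.7 to 204.4 with a median of 136.9. No Irs1 KO liver reached the lowest control, and the mean was 66.1 ± 19.9 (SD, n = 5) against 142.2 ± 36.2 (SD, n = 6), or 46.5% of the control (log2 change -1.11, SE 0.29, limma adjusted p = 0.0119). Ccnd2, a second D-type cyclin, was at 79.4% of the control mean and did not pass. Of the E-type cyclins Ccne1 was at 95.9% and Ccne2 at 64.7%, without passing. Ccna2 was at 49.7%, Ccnb1 at 29.7%, Ccnb2 at 33.4% and Cdk1, the kinase that the A- and B-type cyclins activate, at 35.7% of the control mean. None of these 4 passed, and Ccnb1, Ccnb2 and Cdk1 are among the genes listed at 0 in some livers.

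On the log2(FPKM + 1) scale Hmmr had the largest of the 34 changes. It encodes a hyaluronan receptor that also binds the spindle (chromosome 11, 40701395 to 40733422, minus strand; promoter shown above). Its levels were 4.99, 8.41, 3.01, 5.54 and 6.49 FPKM in Irs1 KO against 15.8 to 54.9 with a median of 24.9 in the controls. The groups did not overlap, and the Irs1 KO mean of 5.69 ± 1.99 (SD, n = 5) was 18.9% of the control mean of 30.1 ± 16.1 (SD, n = 6), a log2 change of -2.12 (SE 0.49, limma adjusted p = 0.0051). By percent of the control mean the low gene Aurkb, described below, was lower still at 17.8%. Top2a, the topoisomerase that untangles sister chromatids (chromosome 11, 98992943 to 99024189, minus strand), stood at 10.6, 12.5, 9.45, 9.34 and 24.8 FPKM against 28.6 to 95.7 with a median of 39.5. It had no overlap (log2 change -1.75, SE 0.49, limma adjusted p = 0.0189). Mki67, the gene of the proliferation marker Ki-67 (chromosome 7, 135689784 to 135716361, minus strand), stood at 23.1, 27.9, 25.2, 31.3 and 50.6 FPKM against 44.7 to 148.9 with a median of 88.0. The highest Irs1 KO liver lay above the lowest control (log2 change -1.49, SE 0.44, limma adjusted p = 0.0279).

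Among the genes that fell were Cenpf and Cenpe, which act at the kinetochore, the site where chromosomes meet the spindle. The checkpoint kinase gene Bub1 did not pass (48.7% of the control mean). Cenpf (chromosome 1, 189640606 to 189688086, minus strand) stood at 2.09, 3.10, 1.90, 2.80 and 4.23 FPKM in Irs1 KO against 5.00 to 17.6 with a median of 9.97 (log2 change -1.55, SE 0.41, limma adjusted p = 0.0136). Cenpe, a kinetochore motor (chromosome 3, 135212537 to 135273611, plus strand), stood at 0.487, 2.58, 1.96, 3.38 and 2.64 FPKM against 4.23 to 13.4 with a median of 7.36 (log2 change -1.46, SE 0.39, limma adjusted p = 0.0141). Neither overlapped with the controls. Bub1b, a kinase of the spindle checkpoint (chromosome 2, 118598211 to 118641591, plus strand), stood at 1.66, 1.54, 0.597, 1.85 and 1.81 FPKM against 2.36 to 13.9 with a median of 4.87, also without overlap (log2 change -1.30, SE 0.37, limma adjusted p = 0.0215). Aurkb, the kinase that corrects faulty chromosome attachment (chromosome 11, 69045647 to 69051664, plus strand), stood at 0.376, 1.98, 0.721, 0.373 and 1.09 FPKM against 1.94 to 10.1 with a median of 4.30. Its Irs1 KO values are a few reads each, and 1 Irs1 KO liver reached the lowest control (log2 change -1.59, SE 0.49, limma adjusted p = 0.0324). Prc1, which bundles microtubules at cytokinesis (chromosome 7, 80294450 to 80316259, plus strand), stood at 1.61, 12.7, 16.2, 15.6 and 20.2 FPKM against 23.9 to 43.2 with a median of 37.1. All 5 were below the controls and 1 stood far below the other 4 (log2 change -1.59, SE 0.46, limma adjusted p = 0.023). The 11 mitosis genes that did not pass lay between 21.3% of the control mean (Plk1, the polo kinase) and 65.9% (Ube2c, a ubiquitin-conjugating enzyme of mitotic exit). Foxm1, the transcription factor of the G2 and mitosis program, was at 36.1% (limma adjusted p = 0.0909).

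Without Irs1 KO replicate 1 the count of lower genes in Irs1 KO was 7, and without Irs1 KO replicate 3 or without sgGFP control replicate 3 it was 6. Ccnd1, Hmmr and Cenpf kept their call in all 21 alternatives run, including each of these. Cenpe and Prc1 lost it only without Irs1 KO replicate 1, Mcm5 only without Irs1 KO replicate 3, Top2a only without sgGFP control replicate 3, and Bub1b without either of the latter. The calls held in 15 of 21 alternatives for Mki67, in 13 for Mcm2, in 12 for Aurkb and in 9 for Mcm3. Mki67 lost it without Irs1 KO replicate 1, 2 or 3 or sgGFP control replicate 1 or 3, and Aurkb without Irs1 KO replicate 1, 3 or 4, sgGFP control replicate 1 or 3 or sgLacZ control replicate 2. Mcm2 lost it without Irs1 KO replicate 2, 3 or 5, sgGFP control replicate 2 or 3 or sgLacZ control replicate 2. For Mcm3 leaving out any Irs1 KO liver, sgGFP control replicate 2, 3 or 4 or sgLacZ control replicate 2 ended the call. Processing ended calls too, that of Mcm3 without a filter and under median scaling or quantile normalization. Mcm2 and Aurkb lost theirs under quantile normalization, and Aurkb also with a pseudocount of 0.1. With the sgGFP livers alone as control, Mki67, Mcm2 and Aurkb lost theirs. Of the 10 genes of the 12 with a matched promoter, 7 had a CHR match and all 10 had CCAAT, and of the 16 other genes with a window 8 had a CHR match and 12 had CCAAT.

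**Figure D1:**
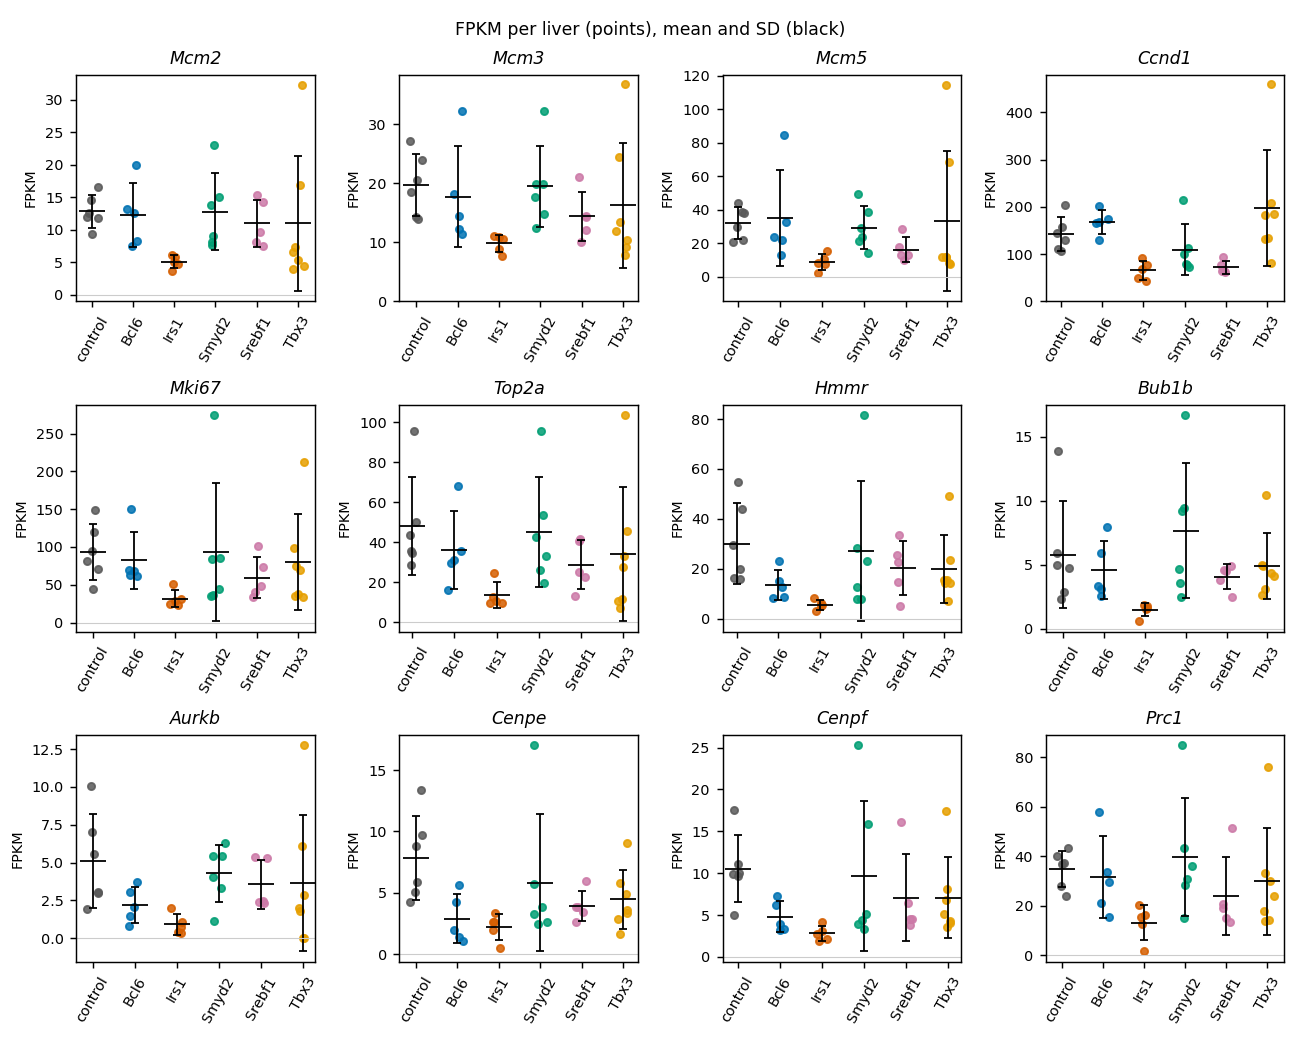
Levels in FPKM (vertical axis, linear) of the 12 genes that passed the test in Irs1 KO, in the control livers and the 5 knockouts (horizontal axis). Each point is 1 liver, and black bars give the group mean and SD. The Irs1 KO points are low and close together in most panels, while Smyd2 KO and Tbx3 KO each hold 1 liver far above the rest, as in Mki67 with 274.6 and 213.1 FPKM.

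Genes with related roles that are not among the 34 were counted from lists of the same kind. The share of all genes called in Irs1 KO, 7.61% lower and 3.24% higher, applies to each count. In Irs1 KO, 13 of 39 other mitosis genes tested were lower and 0 higher. They included Spc25 and Nuf2, subunits of the kinetochore complex that holds microtubules, and Ckap2, a spindle protein. Spc25 averaged 136.9 ± 24.2 FPKM (SD, n = 5), and the controls 268.8 ± 71.9 (SD, n = 6), which made a log2 change of -0.95 (SE 0.20, limma adjusted p = 0.00272). Nuf2 went from 10.04 ± 6.60 FPKM in controls to 1.303 ± 0.756, a log2 change of -2.16 (SE 0.49, limma adjusted p = 0.00487). Ckap2 went from 8.67 ± 4.54 FPKM to 1.32 ± 1.70, a log2 change of -2.22 (SE 0.50, limma adjusted p = 0.00443). Of 25 other replication genes 4 were lower, among them the helicase subunit Mcm4 (5.87 ± 0.618 against 14.6 ± 2.51 FPKM) and Chaf1a (5.10 ± 1.13 against 12.5 ± 2.33 FPKM), part of the factor that loads histones on new DNA. Mcm10, a replication initiation factor, went the other way and was the 1 gene of that list called higher, with 144.3 ± 37.7 FPKM in controls and 273.2 ± 59.6 in Irs1 KO, a log2 change of 0.93 (SE 0.23, limma adjusted p = 0.00737). Of 21 G1 and E2F regulators only 1 was lower, no larger a share than over all genes. It was the E2F family repressor E2f8 with 46.6 ± 15.8 FPKM in controls and 17.5 ± 8.13 in Irs1 KO (a log2 change of -1.42, SE 0.32, limma adjusted p = 0.00475).

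Inhibitors of the cycle were also among the lower genes in Irs1 KO. Of 16 inhibitors and pocket proteins 5 were lower and 0 higher. Btg2, an antiproliferative gene, went from 42.5 ± 17.4 FPKM (SD, n = 6) in controls to 17.1 ± 4.51 (SD, n = 5), a log2 change of -1.22 (SE 0.26, limma adjusted p = 0.00254). Cdkn2c, the CDK4 and CDK6 inhibitor p18, went from 9.77 ± 4.21 to 2.65 ± 1.70 FPKM, a log2 change of -1.59 (SE 0.39, limma adjusted p = 0.00813). Cdkn1a, the gene of the CDK inhibitor p21, went from 39.5 ± 22.2 to 6.79 ± 2.76 FPKM, a log2 change of -2.30 (SE 0.59, limma adjusted p = 0.011).

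Some markers of nonparenchymal cells were also lower in Irs1 KO, where 7.61% of all genes were called lower. Of 6 macrophage markers other than those of Kupffer cells, 2 were lower (Gpnmb, 0.791 ± 0.613 against 23.2 ± 18.2 FPKM, and the monocyte receptor Ccr2, 8.91 ± 3.53 against 39.2 ± 26.5 FPKM), and the 6 summed to 125.2 to 294.0 FPKM against 241.8 to 929.3 in the controls. Of 7 stellate cell markers 3 were lower, including the collagens Col3a1 (16.7 ± 6.25 against 96.4 ± 53.2 FPKM) and Col1a1 (4.92 ± 2.99 against 37.5 ± 22.9 FPKM), and the list summed to 566.8 to 675.8 against 740.6 to 1634 FPKM. Of 5 cholangiocyte markers 1 and of 8 T cell and NK cell markers 1 were lower. Of 6 endothelial markers 2 were lower, while the other 4 had changes above 0 and the list's median was 0.05. No B and plasma cell marker of 6 passed, and of 3 erythroid markers tested 1 was higher. No Kupffer cell marker of 6 passed, with sums of 421.4 to 755.8 against 489.6 to 787.1 FPKM. Of 8 hepatocyte markers 4 were higher. Of 5 neutrophil markers only 3 passed the filter on low values and were tested, and 0 of these passed the test. Ly6g was listed at 0 in all livers of Irs1, Srebf1 and Bcl6 KO, and Retnlg in all of Irs1 and Srebf1 KO. The 5 markers of that list summed to 29.5 to 56.9 against 66.7 to 231.0 FPKM. The part that cell composition has in the lower cell cycle genes was not tested.

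**Figure D2:**
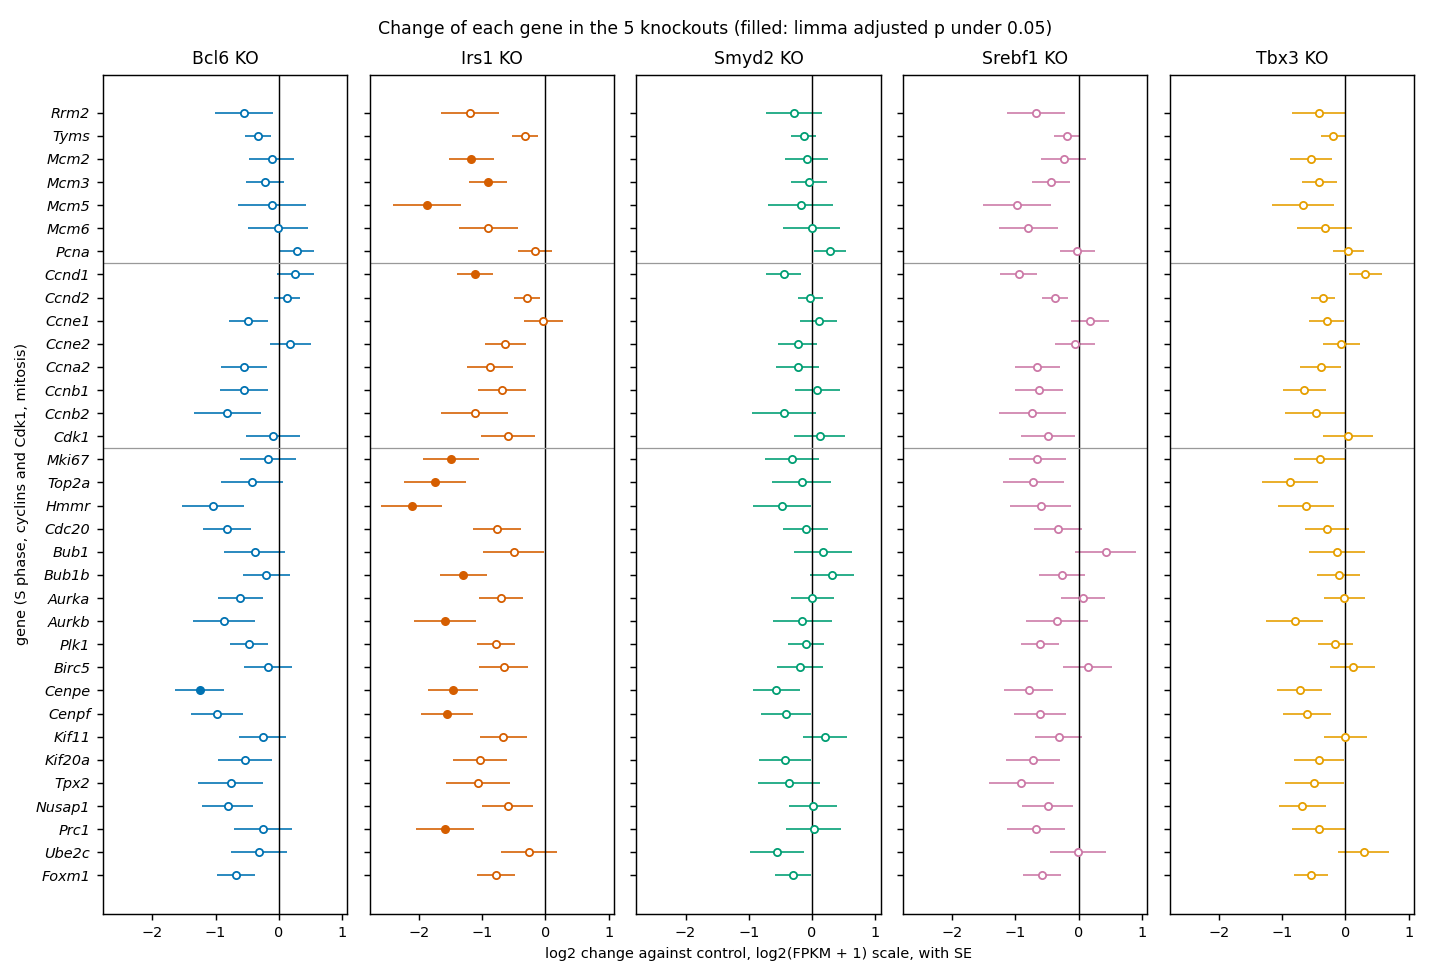
Log2 change against the control livers (horizontal axis, log2(FPKM + 1) scale, bars are SE) of each of the 34 genes (vertical axis, grouped as S phase, cyclins and Cdk1, and mitosis) in the 5 knockouts. Filled points passed limma's test: 12 in Irs1 KO, 1 in Bcl6 KO and 0 in the others. Of the 34 genes, 30, 24, 30 and 29 lie left of 0 for Bcl6, Smyd2, Srebf1 and Tbx3 KO. Over all 19295 genes tested, 11484, 9722, 10983 and 11086 changes were below 0 in the same order.

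In Bcl6 KO, where guides were directed against the transcriptional repressor Bcl6, 1 of the 34 genes was lower and 0 higher, against 3.19% and 2.95% of all genes tested. Over all genes the calls were 615 lower and 570 higher, and under median scaling 363 lower and 684 higher, under quantile normalization 466 and 679. That gene was Cenpe, at 1.40, 1.96, 4.29, 1.11 and 5.64 FPKM against 4.23 to 13.4 in the controls. It overlapped with the controls in 2 livers (2.88 ± 1.99, SD, n = 5, against 7.85 ± 3.44 FPKM, SD, n = 6, log2 change -1.25, SE 0.39, limma adjusted p = 0.0497). The call rested on a margin and was lost in 13 of 21 alternatives, among them the fits without Bcl6 KO replicate 1, 2 or 4, without sgGFP control replicate 1, 2 or 3 and without either sgLacZ control. Of the 34 changes 30 were below 0, and over all genes 11484 of 19295. The median of the 34 changes was -0.40 against -0.07 over all genes. Leaving out replicate 1 moved that median to -0.23, and leaving out replicate 5 moved it to -0.64. An unadjusted p under 0.05 was found for 5 of the 34 genes (Cenpe, Cenpf, Foxm1, Cdc20 and Hmmr), or 14.7%, which is no more than the 18.1% of all genes tested.

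Values in single Bcl6 KO livers show 1 that stood apart. Mki67 was at 62.9, 69.2, 68.6, 62.2 and 150.0 FPKM and Top2a at 16.1, 31.1, 35.7, 29.6 and 68.4, with replicate 5 the highest of the group in both. Mcm5 was at 13.1, 23.6, 21.7, 32.7 and 84.8 FPKM, Mcm3 at 12.3, 11.4, 14.4, 18.2 and 32.2, and Mcm2 at 8.34, 7.51, 12.5, 13.3 and 19.96. In these helicase subunits too the fifth liver was highest. Hmmr was at 8.26, 8.58, 15.0, 12.7 and 23.0 FPKM and Cenpf at 3.22, 3.95, 6.16, 3.37 and 7.33. Bub1b was at 2.58, 3.13, 5.90, 3.34 and 7.93 FPKM, Aurkb at 1.44, 3.03, 2.07, 0.780 and 3.69, and Prc1 at 21.2, 29.6, 33.8, 15.6 and 58.1. Replicate 5 was the highest of its group in 31 of the 34 genes, all 7 of S phase and all 19 of mitosis among them. Ccnd1 spread less than these, at 175.3, 130.5, 167.7, 165.1 and 200.9 FPKM, within the control range of 105.7 to 204.4. Of the related genes Mcm10 was lower in Bcl6 KO (70.5 ± 16.04, SD, n = 5, against 144.3 ± 37.7 FPKM, SD, n = 6, log2 change -1.01, SE 0.23, limma adjusted p = 0.00352), and no other gene of the 4 related lists passed.

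In Srebf1 KO, where guides were directed against the gene of the lipogenic transcription factor SREBP-1, 0 of the 34 genes passed in either direction by limma, against 0.181% of all genes called lower and 0.197% higher. Over all genes these were 35 lower and 38 higher, and 26 and 27 without the library that goes against its label. An unadjusted p under 0.05 was seen for 2 of the 34 genes, Ccnd1 and Plk1, or 5.88% against 13.1% of all genes, and for 1 without that library. Ccnd1 was at 62.2, 64.0, 77.2, 63.8 and 94.3 FPKM, and all 5 livers lay below all controls, as they did for 1.16% of all genes. Its mean was 72.3 ± 13.7 (SD, n = 5) against 142.2 ± 36.2 FPKM (SD, n = 6), a log2 change of -0.95 (SE 0.29, limma adjusted p = 0.144). Leaving out the library labelled Srebf1 KO replicate 1, the change was -0.90 (SE 0.31, limma adjusted p = 0.272). The median of the 34 changes was -0.53 with all 5 livers and -0.42 without that library, against -0.05 over all genes, and 30 and 29 of the changes were below 0. Over all genes 10983 of 19295 changes were below 0 with all 5 livers.

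Single livers of Srebf1 KO overlapped with the controls in the other genes. Mcm5 was at 13.1, 12.8, 9.77, 17.6 and 28.3 FPKM, Mcm2 at 8.14, 7.44, 14.2, 9.69 and 15.4, and Mcm3 at 12.1, 14.4, 14.3, 10.02 and 21.1. The fifth liver was highest in all 7 S phase genes. Mki67 was at 33.8, 48.9, 40.6, 73.9 and 101.0 FPKM, Top2a at 25.1, 22.6, 13.2, 41.8 and 40.8, and Hmmr at 5.06, 14.8, 25.4, 22.8 and 33.6. Replicate 1, whose Srebf1 mRNA goes against its label, was the lowest for Hmmr and Mki67. Cenpf was at 3.80, 4.53, 4.58, 6.40 and 16.1 FPKM, Cenpe at 2.61, 3.85, 3.81, 3.40 and 5.99, and Bub1b at 4.50, 2.52, 4.61, 3.81 and 4.94. Aurkb was at 2.43, 5.33, 2.39, 2.30 and 5.37 FPKM and Prc1 at 13.4, 14.9, 20.6, 19.2 and 51.5. Cenpf and Prc1 thus had 1 value far above the other 4, again in replicate 5.

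In Smyd2 KO, with guides against the gene of a lysine methyltransferase, 0 of the 34 genes and 0% of all genes tested were called by limma in either direction. At an unadjusted p under 0.05 the count among the 34 was 0, against 7.17% of all genes. Below 0 were 24 of 34 changes, and over all genes 9722 of 19295. The median change of the 34 was -0.14 against a median of 0.00 over all genes. That median rested on single livers. It was -0.0055 (17 changes below 0) without Smyd2 KO replicate 3, -0.05 without replicate 4 or without sgGFP control replicate 3, and -0.25 without replicate 6. Ranges were wide, with 1 liver at the top of most. Mki67 ran from 35.0 to 274.6 FPKM with a median of 64.2, and Hmmr from 7.94 to 81.6 with a median of 18.0. Top2a ran from 19.4 to 96.0 with a median of 37.7, Prc1 from 15.3 to 84.8 with a median of 33.5, and Cenpf from 3.32 to 25.3 with a median of 4.76. In all of these the highest value was that of Smyd2 KO replicate 6. It was also highest for Cenpe (2.49 to 17.0 FPKM, median 3.59), Bub1b (2.46 to 16.7, median 6.95), Aurkb (1.15 to 6.27, median 4.75) and Ccnd1 (72.6 to 214.8, median 89.7). For the helicase subunits Mcm2 (7.65 to 23.1 FPKM, median 11.4), Mcm3 (12.4 to 32.2, median 18.7) and Mcm5 (14.05 to 49.3, median 26.5) the highest liver was replicate 2.

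In Tbx3 KO, with guides against the gene of a T-box transcription factor, 0 of the 34 genes passed by limma in either direction, against 1.37% of all genes called lower and 1.17% higher. At an unadjusted p under 0.05 the count was 0, against 17.5% of all genes. Below 0 were 29 of 34 changes (23 under quantile normalization), and over all genes 11086 of 19295. The median change of the 34 was -0.40 against -0.06 over all genes. The median was -0.27 without Tbx3 KO replicate 5 and -0.62 without replicate 7. With the replicate number as a block, a fit in which replicate 7 alone has its number, all 34 were below 0. Their median was then -0.86 against -0.09 over all genes. Replicate 7, and for S phase genes also replicate 6, stood above the other livers. Mcm5 ran from 7.44 to 114.7 FPKM with a median of 11.6, Mcm2 from 3.95 to 32.3 with a median of 6.60, and Mcm3 from 7.83 to 36.9 with a median of 11.9. Ccnd1 ran from 80.4 to 459.0 with a median of 181.9, Mki67 from 34.4 to 213.1 with a median of 69.1, and Top2a from 6.81 to 103.7 with a median of 27.4. Hmmr ran from 7.05 to 49.1 FPKM with a median of 15.4. All of these peaked in replicate 7. The same liver was highest for Bub1b (2.64 to 10.4 FPKM, median 4.36), Cenpe (1.65 to 9.03, median 3.63), Cenpf (3.55 to 17.4, median 5.17) and Prc1 (14.1 to 76.2, median 23.8), and for Aurkb, which was listed at 0 in 2 livers and reached 12.8 with a median of 1.98. Without both this liver and Smyd2 KO replicate 6, an alternative chosen after the values were seen, 2 genes were lower in Tbx3 KO (Ccnd2 and Top2a). The number of all genes called lower rose as well, to a similar share of the genes tested. Of the related lists, Cdk6, the G1 kinase that partners with D-type cyclins, was lower in Tbx3 KO (24.1 ± 3.17, SD, n = 7, against 33.5 ± 4.21 FPKM, SD, n = 6, log2 change -0.46, SE 0.12, limma adjusted p = 0.0267).

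Differences among the knockouts were tested without the shared controls entering the contrasts. By limma's F test over the 5 knockouts, 2 of the 34 genes differed, Ccnd1 (limma adjusted p = 0.000468) and Bub1b (limma adjusted p = 0.026), against 14.5% of all genes tested. Ccnd1 was higher in Bcl6 KO than in Irs1 KO (log2 difference 1.37, SE 0.30, limma adjusted p = 0.00212, where 6.59% of all genes were higher) and than in Srebf1 KO (1.21, SE 0.30, limma adjusted p = 0.00826, 4.08%). It was lower than in Tbx3 KO both in Irs1 KO (-1.43, SE 0.28, limma adjusted p = 0.0035, 1.63%) and in Srebf1 KO (-1.26, SE 0.28, limma adjusted p = 0.0131, 0.358%). Leaving out the library labelled Srebf1 KO replicate 1, Bcl6 KO exceeded Srebf1 KO by 1.16 (limma adjusted p = 0.0216), and the difference from Tbx3 KO was -1.21 (limma adjusted p = 0.0403). Hmmr, which did not differ by the test between Irs1 KO and Srebf1 KO with all livers (-1.51, limma adjusted p = 0.139), was then lower in Irs1 KO (-1.91, limma adjusted p = 0.0382), and it joined Ccnd1 and Bub1b in the F test. By mean FPKM of Ccnd1 the order was Tbx3 KO (197.3 ± 123.2, SD, n = 7), Bcl6 KO (167.9 ± 25.2, SD, n = 5), Smyd2 KO (109.5 ± 53.9, SD, n = 6), Srebf1 KO (72.3 ± 13.7, SD, n = 5) and Irs1 KO (66.1 ± 19.9, SD, n = 5), and no neighbours in this order passed the test between them. Without its replicate 7 (459.0 FPKM) the Tbx3 KO mean was 153.6 ± 47.3 (SD, n = 6), below that of Bcl6 KO.

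The mitosis gene Bub1b was lower in Irs1 KO than in Smyd2 KO (log2 difference -1.61, SE 0.37, limma adjusted p = 0.0133, where 3.22% of all genes were lower) and kept that call in all 21 alternatives run. Hmmr and Prc1 were also called in that contrast, at -1.64 (limma adjusted p = 0.0481) and -1.62 (limma adjusted p = 0.0392). Those calls held in 5 and 11 of 21 alternatives and were lost in 16 and 10. For Hmmr the losses included changes of processing and not only livers left out. Both were lost without Smyd2 KO replicate 2, 5 or 6 and without Irs1 KO replicate 1 or 2, that of Hmmr also without Irs1 KO replicate 3, 4 or 5 and that of Prc1 also without Smyd2 KO replicate 4. The smallest differences were -1.23 for Hmmr, without Smyd2 KO replicate 6, and -1.08 for Prc1, without Irs1 KO replicate 1. Mcm5 was higher in Bcl6 KO than in Irs1 KO (1.76, limma adjusted p = 0.036), and this call was lost without Bcl6 KO replicate 3, 4 or 5 or without Irs1 KO replicate 3, 4 or 5. The smallest of those differences was 1.38, without Bcl6 KO replicate 5 (limma adjusted p = 0.124). The call of Bub1b by the F test was lost without Irs1 KO replicate 1, 2 or 3 (limma adjusted p of 0.0507 to 0.092). Without Tbx3 KO replicate 7 the F test called 6 genes, adding Mcm2, Mcm5, Ccnd2 and Top2a, and without Smyd2 KO replicate 3 it called 4, adding Hmmr and Prc1.

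**Figure D3:**
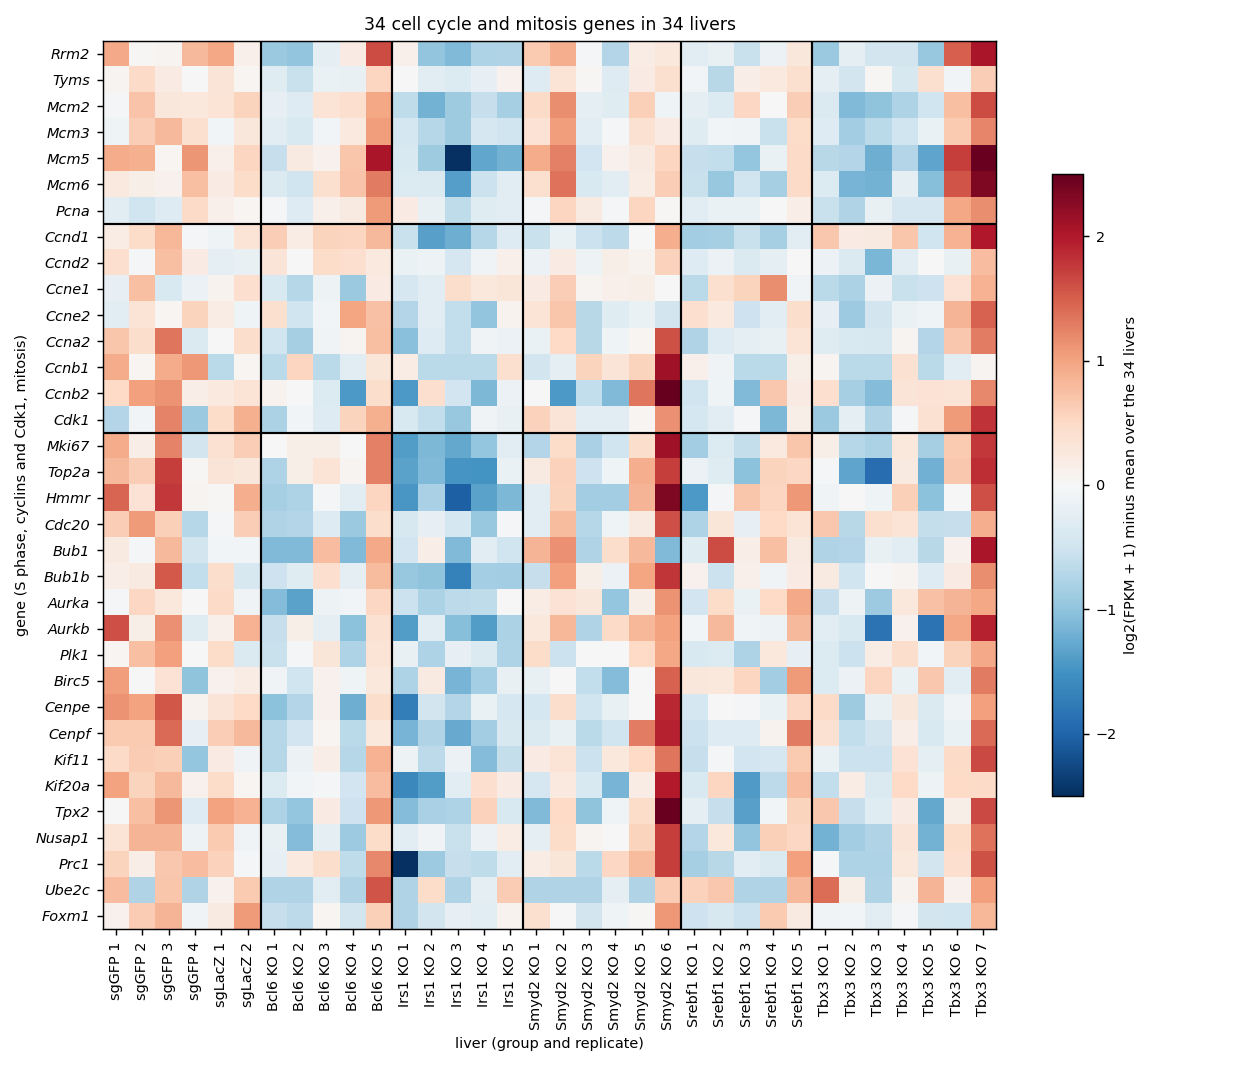
Levels of the 34 genes (rows, grouped as S phase, cyclins and Cdk1, and mitosis) in the 34 livers (columns, by group), as log2(FPKM + 1) minus the gene's mean over all livers, with red above and blue below that mean. Irs1 KO livers are blue in most rows, and Smyd2 KO replicate 6, Tbx3 KO replicate 7 and Bcl6 KO replicate 5 are red in most rows against lighter livers of their own groups.

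Variation between livers of 1 group was large for these genes. The highest of all 34 livers was Smyd2 KO replicate 6 for 16 genes and Tbx3 KO replicate 7 for 15, and the other 3 genes peaked in Srebf1 KO replicate 4 (Ccne1), sgGFP control replicate 3 (Plk1) and Bcl6 KO replicate 5 (Ube2c). A level per liver was taken as the mean over a gene group of log2(FPKM + 1) minus its mean over all livers. By role the high livers differed. Smyd2 KO replicate 6 had a mitosis level of 1.47 and an S phase level of 0.28, and was the highest of its group in 18 of 19 mitosis genes and 1 of 7 S phase genes. In 6 of 7 S phase genes the highest liver of that group was replicate 2, with an S phase level of 0.95 and a mitosis level of 0.35. The control sgGFP replicate 3 resembled the former, with a mitosis level of 1.00 and an S phase level of 0.17. Tbx3 KO replicate 7 was high in both, at 1.34 for mitosis and 1.64 for S phase, while Tbx3 KO replicate 6 was high for S phase (1.02) with a mitosis level of 0.24. Bcl6 KO replicate 5 had 0.74 for mitosis and 1.22 for S phase. In Irs1 KO the mitosis level ran from -1.04 to -0.30 and the S phase level from -1.12 to -0.21, against -0.26 to 1.00 and 0.17 to 0.54 in the controls. Bcl6 KO replicates 1 and 2, Srebf1 KO replicates 1 and 3 and Tbx3 KO replicates 2, 3 and 5 lay within both Irs1 KO ranges.

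**Figure D4:**
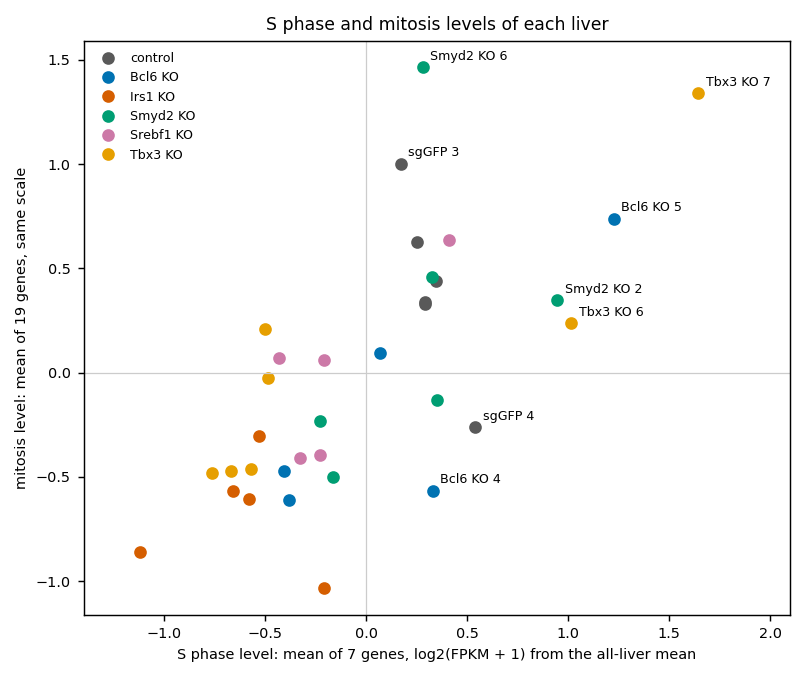
S phase level (horizontal axis, mean of 7 genes) against mitosis level (vertical axis, mean of 19 genes) of each liver, both in log2(FPKM + 1) from the all-liver mean, with 1 point per liver. Smyd2 KO replicate 6 is high on the mitosis axis alone (1.47 with an S phase level of 0.28). Tbx3 KO replicate 6 and Smyd2 KO replicate 2 lie to the right with mitosis levels of 0.24 and 0.35. All Irs1 KO livers lie at the lower left, as do some livers of each other knockout.

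Macrophage and neutrophil markers were high in 3 of the 4 livers with the highest mitosis levels and not in the fourth. The level of the 6 macrophage markers other than those of Kupffer cells was 1.97 in Smyd2 KO replicate 6, 2.23 in Tbx3 KO replicate 7 and 2.05 in sgGFP control replicate 3. These livers were above every other liver of their group in 5, 6 and 6 of the 6 markers, in 5, 6 and 2 of 7 stellate cell markers and in 4 of 5 cholangiocyte markers each. The counts were 1, 6 and 0 of 8 for T cell and NK cell markers. The level of the 3 neutrophil markers tested was 1.803, 2.415 and 2.266 in these livers and -0.992 in Bcl6 KO replicate 5. Bcl6 KO replicate 5 had a macrophage marker level of -0.16 and was above its group in 0 of the 6 macrophage markers, 1 of 7 stellate cell markers and 0 of 5 cholangiocyte markers, while it was above its group in 29 of 40 other mitosis genes and 17 of 25 other replication genes. Irs1 KO livers had macrophage marker levels of -1.35 to -0.75, all below the controls (-0.02 to 2.05). Tbx3 KO replicates 2, 3 and 5 and Srebf1 KO replicate 1 lay within that Irs1 KO range, at -1.06, -1.139, -0.978 and -1.138. Their mitosis levels were -0.482, -0.474, -0.464 and -0.409. Hepatocyte marker levels of the 4 high livers were -0.22, -0.08, -0.43 and 0.13 in the order Smyd2 KO replicate 6, Tbx3 KO replicate 7, sgGFP control replicate 3 and Bcl6 KO replicate 5. Next in mitosis level came Srebf1 KO replicate 5 (0.635) and sgGFP control replicate 1 (0.627), with macrophage marker levels of -0.111 and 1.172. Their neutrophil marker levels were -0.516 and 0.069. Bcl6 KO replicate 3 had macrophage and neutrophil marker levels of 1.319 and 1.503 at a mitosis level of 0.094. The source of the cell cycle transcripts in these livers was not tested.

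**Figure D5:**
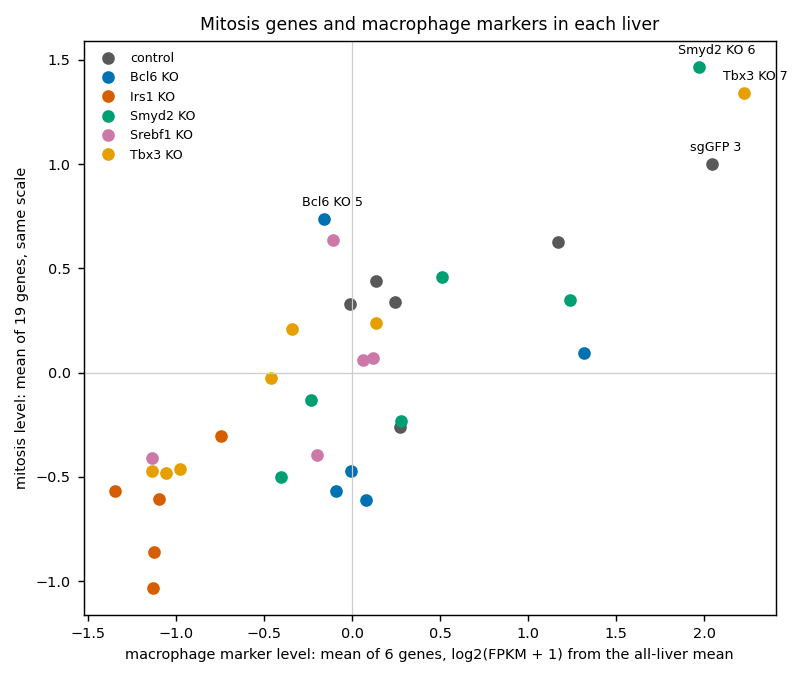
Level of 6 macrophage markers (horizontal axis) against the mitosis level (mean of 19 genes, vertical axis) of each liver, both in log2(FPKM + 1) from the all-liver mean, with 1 point per liver. Smyd2 KO replicate 6, Tbx3 KO replicate 7 and sgGFP control replicate 3 are high on both axes, and Bcl6 KO replicate 5 is high for mitosis at a marker level of -0.16. The Irs1 KO livers are low on both, as are Tbx3 KO replicates 2, 3 and 5 and Srebf1 KO replicate 1.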

How the data were processed

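RNA of 34 mouse livers was sequenced, 1 library per liver. Per the labels' protocols, TRIzol and then RNeasy columns gave total liver RNA, from which a stranded SMARTer kit made the libraries. The authors deposited FPKM per gene symbol. featureCounts 1.6.4 is named as the read counter, and mm10 and GRCh38 as builds without a role, per the submitters' processing notes. Aligner, gene annotation and counting strand were not given in the sources used here, so reads of overlapping or antisense genes may not be separated. FPKM of genes with several transcripts appear to be sums, so levels are not compared between genes. Depth was read from low FPKM of genes with 1 RefSeq transcript, as whole multiples of the value of 1 read, and depth limits the precision of low genes. The per-gene test was that of limma 3.58.1 (R 4.3.3), run for 19295 genes with values taken as log2(FPKM + 1), with all 34 livers in 1 fit of 6 levels, an intensity trend, two-sided p-values and Benjamini-Hochberg adjustment over all genes tested (threshold 0.05). The fit was tested on simulated data. sgGFP and sgLacZ livers were pooled as control. Replicates are taken as separate animals from their numbering, which the labels do not state, so that p-values may reflect only technical spread among these libraries. The genes, lists, tests and alternatives were chosen with earlier results of these data known. Genes passing in a comparison with the control or in the F test are given in every liver (groups over 5 as lowest, median and highest), and of the other lists up to 3 passing genes by smallest adjusted p. Alternatives were a pseudocount of 0.1, no filter, a filter at 5 FPKM, median scaling, quantile normalization, sgGFP livers alone as control, the compared livers alone, no intensity trend, the replicate number as a block and each liver left out, plus 1 chosen after the values were seen.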

Additional observations from a re-analysis of the deposited data

Results flagged for a closer look

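A sample far from the others of its group by Dixon's criterion was looked for in 96 sets of values (the 12 genes that passed in Irs1 KO and the levels of 4 gene sets in the 6 groups), and 7 were found. Chance alone gives about 1 in 20. Mki67 in Bcl6 KO replicate 5 was at 150.0 FPKM, above the other 4 livers. Bub1b in Irs1 KO replicate 3 (0.597 FPKM) and Prc1 in Irs1 KO replicate 1 (1.61 FPKM) lay below theirs. The mean level of the S phase genes was 0.408 in Srebf1 KO replicate 5, that of the cyclins and Cdk1 was 0.546 in Bcl6 KO replicate 5 and 0.0114 in Irs1 KO replicate 5, and that of the mitosis genes was 1.34 in Tbx3 KO replicate 7, each above the rest of its group.

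Knockouts differed from each other in 8 tested log2 differences by limma (each with a Benjamini-Hochberg adjusted p over all genes of its contrast). Ccnd1 differed by 1.37 between Bcl6 KO and Irs1 KO, by 1.21 between Bcl6 KO and Srebf1 KO, by -1.43 between Irs1 KO and Tbx3 KO and by -1.26 between Srebf1 KO and Tbx3 KO. Mcm5 differed by 1.76 between Bcl6 KO and Irs1 KO. Between Irs1 KO and Smyd2 KO, Hmmr differed by -1.64, Bub1b by -1.61 and Prc1 by -1.62. In the direction called, all genes passed at 6.59% for Bcl6 against Irs1 KO and 4.08% for Bcl6 against Srebf1 KO. The shares were 1.63% for Irs1 against Tbx3 KO, 0.358% for Srebf1 against Tbx3 KO and 3.22% for Irs1 against Smyd2 KO. The other contrasts called 0 of the 34 genes, against 0.0207% to 5.04% of all genes by direction.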

How the results depend on the processing

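The replicate numbers did not pair the livers: over 83 pairs of livers with the same number in different groups, deviations from the group means correlated at -0.163 to 0.162 (median -0.00472), and 2 pairs were over 0.1. With the number as a replicate block, limma called 17 of the 34 genes lower in Irs1 KO (the 12 among them), 2 in Bcl6 KO, 1 in Srebf1 KO, 12 in Tbx3 KO and 0 in Smyd2 KO, 8 in the F test and 17 in the pairwise contrasts, where the main counts were 12, 1, 0, 0, 0, 2 and 8. Tbx3 KO replicate 7 is the only liver with its number. With Smyd2 KO replicate 6 and Tbx3 KO replicate 7 both left out, the counts of Srebf1 KO and Tbx3 KO were 1 and 2, those of the F test and the pairwise contrasts 4 and 17. With the compared livers alone in the fit, they were 1 in Srebf1 KO, 0 in Bcl6 KO and 16 in the pairwise contrasts. The gene lower in Bcl6 KO was lost (count 0) with a pseudocount of 0.1, without a filter, under median scaling and without the intensity trend, and without a filter the pairwise count was 5. Leaving out 1 liver gave 6 to 12 in Irs1 KO, 0 to 1 in Bcl6 KO, 0 to 0 in Smyd2 KO, Srebf1 KO and Tbx3 KO, 1 to 6 in the F test and 6 to 19 in the pairwise contrasts. Under the other alternatives the Irs1 KO count was 9 to 14. Where the number of all genes called is not given beside such a count, a shift in the 34 genes cannot be told from one over all genes. Over all genes, the number lower in Tbx3 KO was 265, against 66 with the compared livers alone, 1334 with the replicate block and 1116 without those 2 livers, and in Bcl6 KO it was 615, against 363 under median scaling with 684 higher. No call changed its direction in any alternative, and the causes of these shifts were not tested. All 34 genes passed the low filter in the main analysis, 26 did at 5 FPKM. Depth limits most the genes listed at 0 in some livers.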
